A study of Mus musculus with 22 samples.

Results

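The microRNA miR-375 is encoded by the gene Mir375, whose hairpin gives a 3p arm, mmu-miR-375-3p, and a 5p arm, mmu-miR-375-5p. Both arms were found by name among the probes of an Agilent mouse miRNA array, which makes 2 of the 1881 mouse miRNAs measured. The 3p arm was selected on its serum values in these same data, so its dose difference in serum is given as a description with no test. Each arm had 2 probes of 15 spots each, and none of these spots was saturated on any array.

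The study measured miRNAs in the small intestine, in blood serum and in feces of male mice aged 8 weeks. The mice received 10 Gy of X-rays at a rate of 1.0 Gy per minute, or 0 Gy. Intestine and feces each had 4 arrays at 0 Gy and 4 at 10 Gy, and serum had 2 arrays at 0 Gy and 4 at 10 Gy. Each of the 22 arrays held Cy3-labelled RNA of 1 sample. The labels name no strain, and say neither how long after irradiation the samples were taken nor which animal gave which sample, so the p-values reflect only how much these samples varied, which may be technical. Each sample type lay on 1 of 3 slides, so type and slide cannot be told apart. On the intestine and feces slides columns 1 and 2 carried 0 Gy, and on the serum slide column 2 did. On every slide columns 3 and 4 carried 10 Gy, so an effect of dose and one of the slide column cannot be told apart. Both doses were present in each slide row.

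A miRNA is a short RNA that is cut from a hairpin precursor, loaded into an Argonaute protein and guided to messenger RNAs by its seed, the bases near its 5′ end. Usually 1 arm of a hairpin accumulates and the other is degraded, and for miR-375 the 3p arm is the abundant one. miR-375 is highly expressed in the endocrine cells of the pancreatic islets, where it restrains insulin secretion and is needed for a normal beta cell mass, and in the gut it is enriched in enteroendocrine cells, the hormone-producing cells of the epithelium.

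The hairpin is shown first because both arms are cut from it. In RefSeq's annotation of GRCm38.p6 it is on the minus strand at chr1:74900658-74900721, between the protein-coding genes Cryba2 and Cfap65 and within no other annotated gene. The line below gives its 64 bases from 5′ to 3′, with the 22 bases of the 5p arm (chr1:74900696-74900717) in capitals.
Mir375 hairpin: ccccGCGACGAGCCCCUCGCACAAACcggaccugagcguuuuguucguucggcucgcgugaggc
The 5p arm is shown again with its seed, bases 2 to 8, in capitals, because its probes gave a result that differs from that of the 3p arm.
mmu-miR-375-5p: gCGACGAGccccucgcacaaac
G and C made up 68.2% of the 5p arm. Of the 1679 mature mouse miRNAs in the RefSeq table, 0 others had this seed.

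The 3p arm was bright in intestine, dimmer in serum and near the background in feces. Detection required that 50% or more of the spots of 1 probe or more stood well above background on that array. By that rule miR-375-3p was detected on 8 of 8 intestine arrays, 6 of 6 serum arrays and 4 of 8 feces arrays. Detection of the 5p arm went the opposite way, with 0 of 8 intestine arrays, 0 of 6 serum arrays and 6 of 8 feces arrays. The arrays as a whole detected 286 to 389 miRNAs in intestine, 131 to 219 in serum and 378 to 675 in feces.

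**Figure D1:**
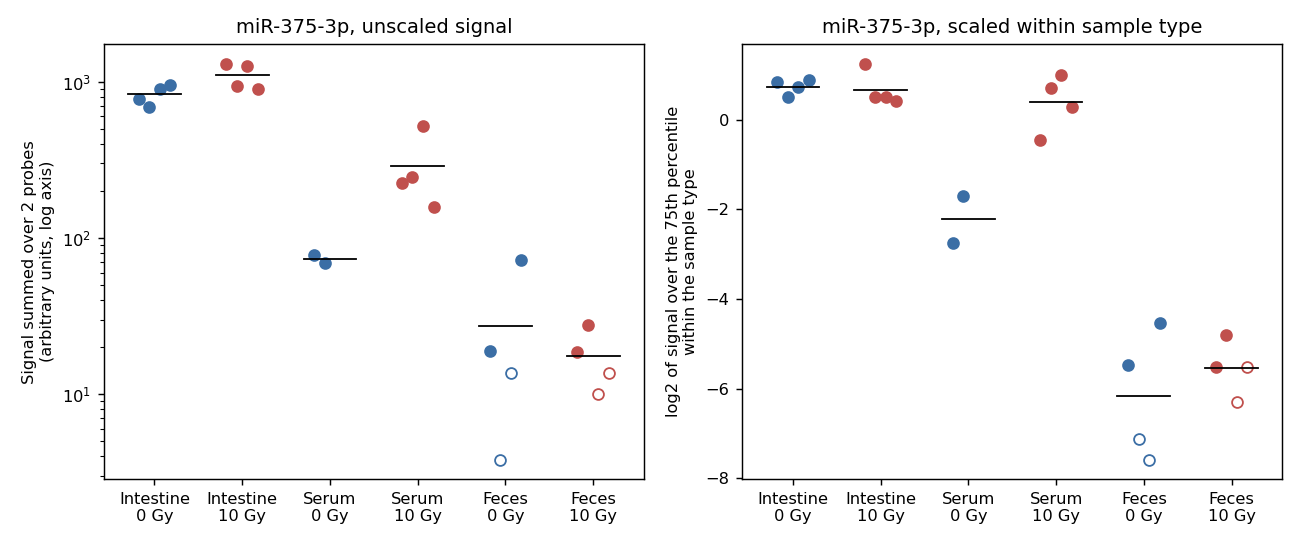
miR-375-3p on each of the 22 arrays, by sample type and dose, as signal summed over its 2 probes (left, arbitrary units, log axis) and as log2 of that signal over the array's 75th percentile (right). Filled points are arrays where it was detected, open points arrays where it was not, and bars are group means; in serum every 10 Gy array lies above both 0 Gy arrays, while in intestine and feces the doses overlap.

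In unirradiated intestine the signal of miR-375-3p, summed over its 2 probes, was 778, 686, 889 and 952 in replicates 1 to 4. In intestine given 10 Gy it was 1298, 931, 1249 and 892. The unscaled signals of the 2 doses overlapped, with means of 826 ± 118 and 1093 ± 211 (SD, n = 4 each). The arrays at 10 Gy were also brighter and detected more miRNAs, 331 to 389 against 286 to 300, so signals were scaled to each array's 75th percentile, computed from the 269 miRNAs that every intestine array detected, and expressed as log2. On that scale the level of miR-375-3p was 0.83, 0.51, 0.73 and 0.89 at 0 Gy. At 10 Gy it was 1.25, 0.52, 0.51 and 0.43. Replicate 1 at 10 Gy was the highest of the 8 arrays, replicate 2 lay inside the unirradiated range, and replicates 3 and 4 lay below it, replicate 3 by less than the rounding shown.

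No dose difference in intestinal miR-375-3p passed the test. The change, 10 Gy minus 0 Gy, was -0.07 ± 0.21 on the log2 scale (SE, n = 4 against 4, limma adjusted p = 0.82). Its 95% interval ran from -0.52 to 0.38, which is from 0.698-fold to 1.31-fold. In the same comparison 138 of 335 tested miRNAs (41.2%) passed, with a median change of 0.16 over all tested. The sign was not settled: it was -0.35 within slide row 2, 0.21 within slide row 1 and 0.39 without scaling (adjusted p = 0.082), where the median of all tested miRNAs rose to 0.62. The 2 probes gave -0.17 ± 0.18 (A_54_P1511, limma adjusted p = 0.49) and -0.10 ± 0.16 (A_54_P4392, adjusted p = 0.67), in a fit where 39.7% of 607 probes passed.

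Other epithelial miRNAs moved on the same arrays. Of 12 listed miRNAs of the intestinal epithelium, all detected on every intestine array, 7 fell and 0 rose, where 15.2% of all 335 tested miRNAs fell and 26% rose. The median change of the 12 was -0.64 against 0.16 for all tested miRNAs. Those that fell include miR-200b-3p, miR-200c-3p, miR-141-3p and miR-429-3p, all of the miR-200 family. The 7 are therefore not 7 separate observations. miR-194-5p at -0.66 and miR-215-5p at -0.71 did not pass (limma adjusted p = 0.058 and 0.052). Without scaling 1 of the 12 fell, against 3.88% of all tested. With the percentile taken over all miRNAs 10 fell, against 25.7% of all tested (6.27% rose). With 1 intestine array left out 5 to 9 fell, against 37 to 52 of all 335 tested. miR-192-5p, an abundant miRNA of gut epithelium, fell by 0.61 ± 0.21 on the log2 scale (SE, limma adjusted p = 0.034). That call held on 3 of the 8 ways of leaving out 1 array and not without scaling. With quantile normalization the change of miR-192-5p was exactly 0. That setting gives equal values to equal ranks, so it cannot show a fall where the rank is unchanged. miR-200b-3p and miR-200c-3p, which repress the ZEB factors and so help maintain the epithelial state, changed by -0.79 ± 0.20 each (adjusted p = 0.0088 each). Without scaling they were at -0.33 each and neither passed (limma adjusted p = 0.065 and 0.069). miR-378a-3p, processed from an intron of Ppargc1b, changed by -1.02 ± 0.20 (adjusted p = 0.0019). miR-203-3p, which restrains progenitor cells in stratified epithelia, was at -0.08 ± 0.20 and did not pass, nor did miR-802-5p at 0.01 ± 0.29. Whether miR-375-3p differed in its change from these miRNAs was not tested.

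Of 11 listed endocrine and neuroendocrine miRNAs, 7 were tested in intestine, 2 rose, 0 fell and the median change was 0.04. With 26% of all tested miRNAs higher, 2 of 7 is near the background. The 2 were miR-132-3p, a CREB-induced miRNA of neurons and endocrine cells, at 1.29 ± 0.18 (SE, limma adjusted p = 0.00015), and miR-7b-5p at 0.59 ± 0.19 (adjusted p = 0.024), which was detected on 0 of 4 arrays at 0 Gy and 4 of 4 at 10 Gy. miR-7b-5p thus met the filter of 4 arrays only through the 10 Gy group, where it was higher, so its rise is a description. The value of miR-7b-5p turned to -0.11 with normexp, and its call held on 3 of the 8 ways of leaving out 1 array, while that of miR-132-3p held on 8 of 8. miR-7a-5p, the most abundant islet miRNA of the miR-7 family, was detected on all 8 arrays and gave 0.24 ± 0.18 (adjusted p = 0.30). miR-182-5p, miR-183-5p and miR-96-5p, which are transcribed as 1 cluster and are known from sensory cells, lay between -0.23 and 0.04, and none passed. The number that rose was 5 of the 7 without scaling, where 55.5% of all tested miRNAs rose. It was 3 with the summed signal, where 131 of all 335 tested rose, and 1 with quantile normalization, where 55 of 335 rose. It was 1 with the percentile over all miRNAs, where 21 of 335 rose, and 0 with background correction by normexp, where 25 of 335 rose. In bulk tissue, fewer cells of a type and less RNA per cell cannot be told apart.

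**Figure D2:**
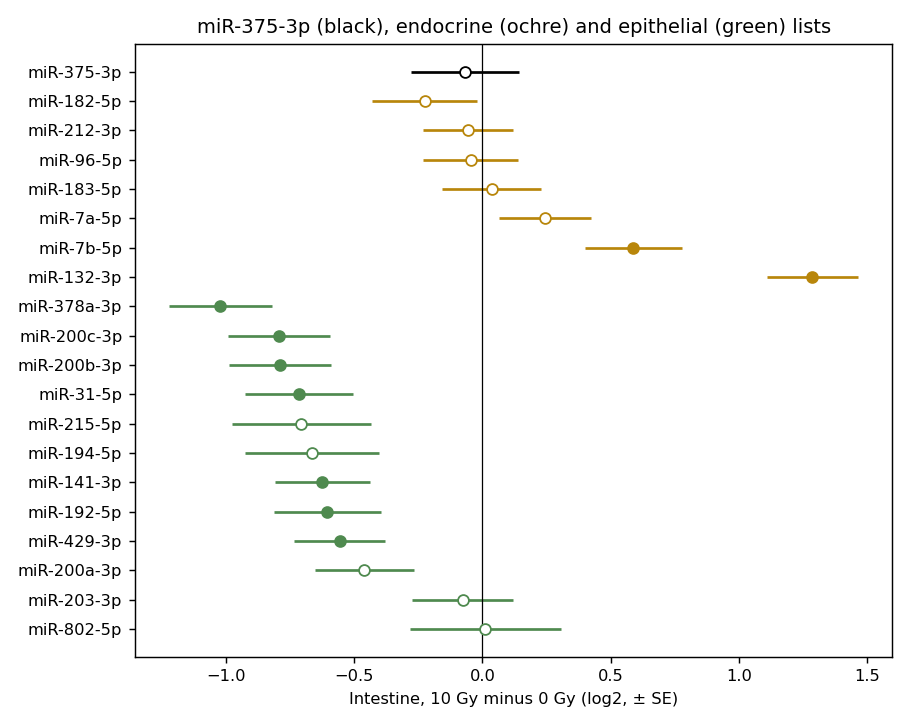
Log2 change in intestine, 10 Gy minus 0 Gy, with its SE, for miR-375-3p (black), the 7 tested endocrine and neuroendocrine miRNAs (ochre) and the 12 epithelial miRNAs (green). Filled points passed at an adjusted p below 0.05; miR-375-3p lies at -0.07, most epithelial miRNAs lie below 0, and miR-132-3p lies highest at 1.29.

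In serum miR-375-3p was higher on every irradiated array. The summed signal was 77.4 and 69.1 on the 2 arrays at 0 Gy. It was 225, 246, 520 and 157 on the 4 arrays at 10 Gy. The 2 doses did not overlap, and replicate 3 at 10 Gy was the brightest. The single non-outlying spots kept the same separation for both probes. Those of A_54_P4392 read between 41.5 and 59.3 at 0 Gy and between 92.7 and 386 at 10 Gy. Those of A_54_P1511 read between 16.8 and 31.8 at 0 Gy and between 46.7 and 184 at 10 Gy. Outlying spots, 2 of A_54_P4392 at 0 Gy and 2 of A_54_P1511 at each dose, were left out of these ranges. All 90 spots of each probe on the serum arrays were well above background. Spots of 1 array are repeats of 1 hybridisation and not replicates.

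The serum arrays at 10 Gy were dimmer as a whole, with a 75th percentile, over the 121 miRNAs that every serum array detected, of 128 to 308, against 224 and 517 at 0 Gy. Scaling to that percentile therefore widened the gap. The scaled log2 level of miR-375-3p was -2.74 and -1.69 at 0 Gy. At 10 Gy it was -0.45, 0.71, 1.00 and 0.29. The group means were -2.22 ± 0.74 (SD, n = 2) and 0.39 ± 0.63 (SD, n = 4), which differ by 2.61, or 6.08-fold. The 2 probes differed by 2.64 each.

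This difference is the one on which the miRNA was chosen, so it supports nothing beyond itself. In the limma fit of serum, run here for the background, 9 of 193 tested miRNAs (4.66%) passed. Without any scaling the serum difference was 1.83, while the median of all tested miRNAs stood at -0.84. Set against the median of all tested miRNAs, miR-375-3p differed by 2.71 as reported. It differed by 2.67 without scaling, 2.71 with the percentile over all miRNAs and 2.72 with the summed signal. These scalings shift all miRNAs of an array alike, apart from values at the lowest level allowed. Their values could therefore hardly differ and are no check on the result. Quantile normalization, which is not bound in this way, gave 2.67. With normexp and an offset of 50, which compresses dim signals, the difference was 1.44, or 1.29 above that median. It was 2.87 within slide row 1 and 2.34 within slide row 2, each row holding 1 array at 0 Gy and 2 at 10 Gy. Leaving out 1 array at a time gave 2.08 to 3.13.

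**Figure D3:**
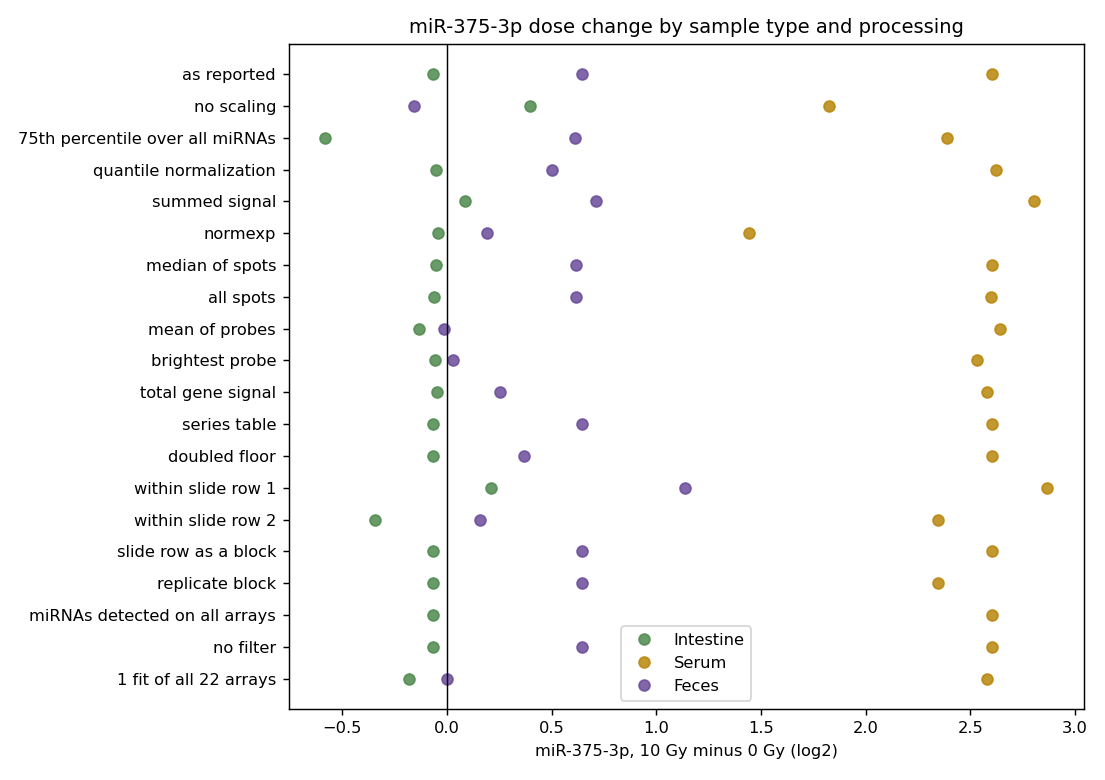
Log2 difference of miR-375-3p, 10 Gy minus 0 Gy, in intestine, serum and feces under each processing alternative (rows; alternatives that leave out 1 array are not drawn). Serum lies between 1.44 and 2.87 throughout, while intestine and feces lie on both sides of 0.

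Red cell miRNAs moved the other way on the same serum arrays. miR-451a and miR-486a-5p are the defining erythrocyte miRNAs of the list and enter serum when red cells lyse. The signal of miR-486a-5p was 8698 and 4461 at 0 Gy and 2392, 1206, 1426 and 729 at 10 Gy, so the doses did not overlap and the irradiated arrays were lower. miR-451a read 375 and 144 at 0 Gy and 11.4, 13.2, 31.6 and 2.40 at 10 Gy, where it was detected on 1 of 4 arrays. These signals are unscaled, and the irradiated arrays were dimmer as a whole. The log2 change of miR-486a-5p was -2.24 without scaling and -1.46 scaled. That of miR-451a was -4.04 without scaling and -3.41 scaled. Over the 5 erythrocyte miRNAs on the array the summed signal ranged from 4604 to 9075 at 0 Gy and from 729 to 2403 at 10 Gy. miR-144-3p, miR-144-5p and miR-16-5p were detected on 0 of 6 serum arrays. The part of the red cell signal in the miR-375-3p difference was not tested.

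Few other markers of a tissue source were seen in serum. Of the 12 epithelial miRNAs, 11 were detected on 0 of 6 serum arrays, miR-192-5p, miR-194-5p and the whole miR-200 family among them. The summed signal of the 12 was 32.2 and 216 at 0 Gy and ranged from 32.0 to 188 at 10 Gy. The exception, miR-378a-3p, was detected on every serum array. It read 220 and 55.2 at 0 Gy and 203, 72.1, 128 and 58.1 at 10 Gy, so its unscaled signals overlapped. Its scaled log2 levels did not overlap. They were -1.23 and -2.02 at 0 Gy and -0.60, -1.06, -1.02 and -1.14 at 10 Gy, higher on every irradiated array. This change of 0.67 ± 0.29 did not pass (SE, limma adjusted p = 0.25). The liver miRNAs miR-122-5p and miR-122-3p were detected on 0 of 6 arrays, and so were all 5 of the pancreatic acinar list, which holds miR-217-5p and the miR-216 arms. The part of these sources in the serum signal of miR-375-3p was not tested.

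Of the 11 endocrine and neuroendocrine miRNAs, 10 were detected on 0 of 6 serum arrays, miR-7a-5p and miR-184-3p, the defining 2 of the list, included. The 1 that was detected, miR-212-3p, which shares a cluster with miR-132, had scaled log2 levels of -1.73 and -0.89 at 0 Gy and -0.99, -1.07, -1.06 and -0.77 at 10 Gy, so the doses overlapped. The summed signal of this list was 117 and 149 at 0 Gy and ranged from 66.3 to 153 at 10 Gy. Among leukocyte miRNAs miR-342-3p was detected on every serum array, with scaled log2 levels of -0.71 and -0.19 at 0 Gy and -0.47, 0.15, 0.71 and 0.06 at 10 Gy, which overlapped too. Of the smooth muscle list, miR-145a-5p lay between -2.77 and -2.36 on all 6 arrays. miR-133a-3p, a miRNA of striated muscle that the list also holds, was detected on 5 of 6 arrays and read -2.48 and -2.52 at 0 Gy and -3.30, -0.96, -1.53 and -3.37 at 10 Gy, so 2 irradiated arrays lay above both unirradiated ones and 2 below.

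**Figure D4:**
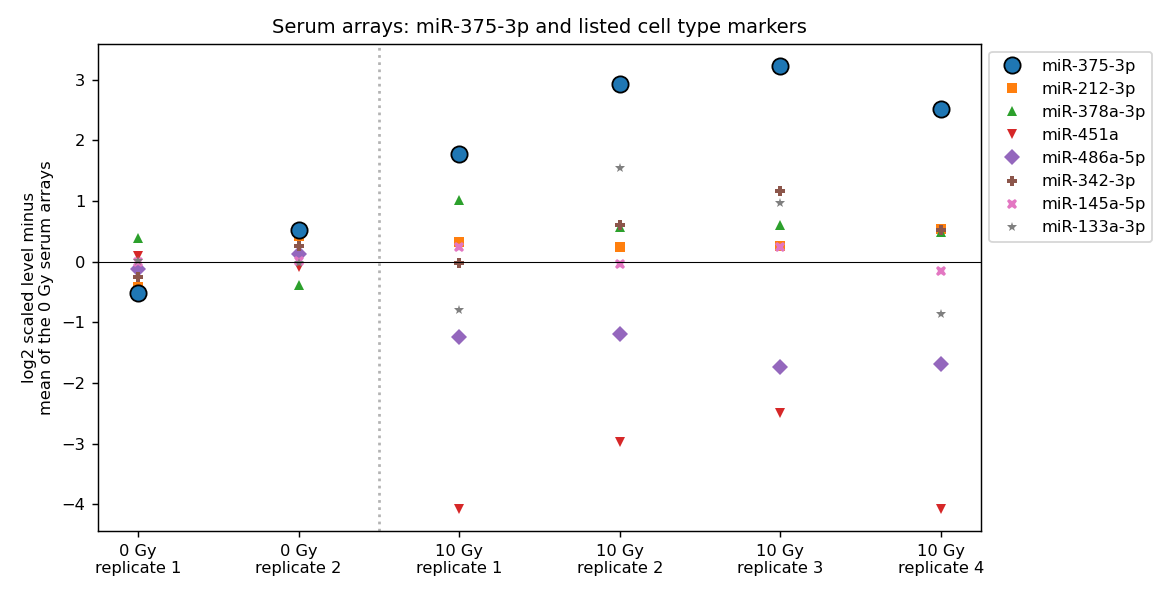
Scaled log2 level on each of the 6 serum arrays, minus the mean of the 2 arrays at 0 Gy, for miR-375-3p (large outlined circles) and the 7 listed marker miRNAs detected on at least 2 serum arrays. At 10 Gy miR-375-3p lies highest on all 4 arrays, miR-451a and miR-486a-5p lie below 0 on all 4, and the others lie between them.

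In feces miR-375-3p sat at the edge of detection. The summed signal was 19.0, 3.82, 13.7 and 72.5 at 0 Gy, with replicates 1 and 4 detected. At 10 Gy it was 18.7, 27.9, 10.1 and 13.7, with replicates 1 and 2 detected. The doses overlapped, and replicate 4 at 0 Gy was the brightest of the 8. The probe A_54_P4392 was detected on those 4 arrays and A_54_P1511 on 1 of them, the brightest.

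The scaled log2 level in feces was -5.46, -7.11, -7.58 and -4.53 at 0 Gy and -5.51, -4.79, -6.29 and -5.50 at 10 Gy. The change was 0.65 ± 0.66 (SE, n = 4 against 4, limma adjusted p = 0.50), with a 95% interval from -0.84 to 2.13. In this comparison 37 of 491 tested miRNAs (7.54%) passed. The change was not detectable at this signal, and its sign turned without scaling (-0.16) and with the mean of the probes in place of their sum (-0.01). The gut epithelial miRNAs, by contrast in detection, were mostly present: 9 of the 12 were detected on all 8 feces arrays. Of those 9 tested, 0 rose and 0 fell, with a median change of 0.75 against 0.15 for all tested miRNAs.

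The dose effect in feces minus that in intestine was 0.18 ± 0.45 (SE, limma adjusted p = 0.94) in 1 fit of all 6 groups, in which 10.9% of 749 miRNAs passed. Scaled over the 81 miRNAs detected on all 22 arrays, miR-375-3p lay at the lowest value allowed, -6.41, on all 8 feces arrays. This value is therefore only the intestinal change with its sign turned, and says nothing of feces.

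Against intestine, miR-375-3p in feces was lower at both doses. At 0 Gy the fitted difference was -6.96 ± 0.32 on the log2 scale (SE, n = 4 against 4, limma adjusted p = 1.4e-12), and all 4 intestine arrays lay above all 4 feces arrays. At 10 Gy it was -6.78 ± 0.32 (limma adjusted p = 2.4e-12), with the same separation. Because every feces array lay at the lowest value allowed, the size of these differences depends on that value and on the scaling, and the folds are not given as bounds. At 0 Gy the difference was 62.3-fold with that value doubled, 48.1-fold with the mean of the probes and 40.6-fold without scaling. Differences between feces and intestine were common, since 59.5% of the 749 tested miRNAs passed at 0 Gy and 58.9% at 10 Gy. With normexp and its offset the log2 differences shrank to -3.09 (8.51-fold) and -2.95, and they passed under every alternative run. The feces arrays had no spread on this scale and added none to the SE. Leaving out a feces array could therefore not move either difference.

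On the common scale the 6 groups fell in this order. Intestine at 0 Gy had a level of 0.55 ± 0.29 and intestine at 10 Gy 0.37 ± 0.65 (SD, n = 4 each), and their arrays overlapped. Serum at 10 Gy followed at -0.27 ± 0.68 (SD, n = 4), with arrays from -1.13 to 0.43 that overlapped those of irradiated intestine, which ran from -0.24 to 1.25. Serum at 0 Gy was at -2.85 ± 0.65 (SD, n = 2), with no overlap with serum at 10 Gy. Both feces groups were at the lowest value allowed and have no order between them. Unirradiated serum minus unirradiated intestine was -3.40 on this scale, given as a description because the serum arrays took part in the choice of the miRNA. That difference was -1.57 with quantile normalization and -1.71 with the summed signal. In unscaled signal the serum arrays at 10 Gy, at 157 to 520, did not reach the lowest intestine array at 686.

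The 5p arm was detected in feces alone among the 3 sample types. Of its 2 probes, A_54_P00005384 was detected on 0 of 22 arrays, and its signal lay below 0 on average in every group. The other, A_54_P00005385, read 11.02, 7.24, 33.5 and 31.6 in feces at 0 Gy, where replicates 3 and 4 were detected. At 10 Gy it read 23.1, 17.1, 16.0 and 16.1, and all 4 arrays were detected. In intestine this probe read 1.18 to 3.96 and in serum 2.63 to 5.16, below every feces array. Since 1 of the 2 probes carried all of this signal, the identity of what bound it was not tested. These signals are unscaled. On the scale common to all 22 arrays miR-375-5p lay at the lowest value allowed, -6.41, in all 6 groups. That scale therefore gives no order of the sample types for this arm.

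**Figure D5:**
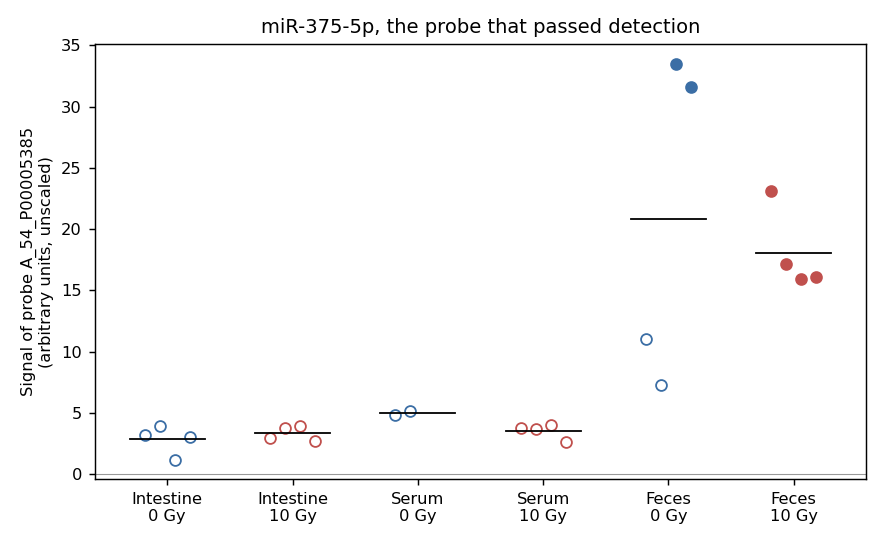
Unscaled signal (arbitrary units) of probe A_54_P00005385, 1 of the 2 probes for miR-375-5p, on each of the 22 arrays by sample type and dose. Filled points are arrays where the probe was detected, open points those where it was not, and bars are group means; all feces arrays lie above all intestine and serum arrays, and the 2 feces doses overlap.

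In feces the change of miR-375-5p was 0.80 ± 0.28 on the log2 scale (SE, n = 4 against 4, limma adjusted p = 0.085), with a 95% interval from 0.16 to 1.44, and did not pass after adjustment. The probe A_54_P00005385 by itself changed by 0.62 ± 0.17 (limma adjusted p = 0.045), in a fit where 164 of 944 probes (17.4%) passed. Probe and arm were detected on 2 of 4 feces arrays at 0 Gy and 4 of 4 at 10 Gy. Both thus needed the 10 Gy group, where the scaled level was higher, to meet the filter of 4 arrays. Their changes are therefore descriptions. Without scaling the change of the arm was 0.05, and the mean unscaled signal of the probe was 20.9 ± 13.6 at 0 Gy and 18.1 ± 3.38 at 10 Gy (SD, n = 4 each). Without replicate 4 at 0 Gy the arm changed by 1.01 (limma adjusted p = 0.029), and that choice of arrays raised the number of miRNAs passing in feces from 37 to 149. Within slide row 1 the change was 1.20 and within row 2 it was 0.40.

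The miRNAs whose levels ran most like those of miR-375-3p were found over the scaled log2 values of all 22 arrays, among 263 others detected on at least 11 arrays. The 5 highest Pearson r were those of miR-500-3p (0.985), miR-133b-3p (0.973), miR-24-3p (0.969), miR-425-5p (0.964) and miR-342-3p (0.958). The 3 lowest were those of miR-6370 (-0.958), miR-762 (-0.957) and miR-1896 (-0.953), each detected on all 8 feces arrays. These r are descriptions over arrays that share slides and fall into 3 sample types, with miR-375-3p at 1 value on all 8 feces arrays. miR-192-5p, the epithelial miRNA, was detected on all feces arrays and had an r of 0.415.

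Deviations from the group means, which leave out differences between sample types and doses, gave another ranking. The 5 highest r over the 22 deviations were those of miR-92a-3p (0.911), miR-425-5p (0.875), miR-342-3p (0.854), miR-129-2-3p (0.805) and miR-25-3p (0.802). On every feces array miR-375-3p lay at the lowest value allowed, so its deviations there were 0. With quantile normalization the r of these 5 were lower, at 0.650, 0.502, 0.539, 0.646 and 0.404. miR-92a-3p and miR-25-3p belong to 1 seed family. The 3 lowest were those of miR-7036a-5p (-0.578), miR-669n (-0.552) and miR-468-3p (-0.544). miR-425-5p and miR-342-3p stood among the first 5 in both rankings. Of the first 5, 2 kept that place for levels under Spearman's rho and 4 under quantile normalization, and for deviations 4 and 2.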

How the data were processed

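The deposited files are 1-colour scanner output of 22 arrays. The authors used Agilent Feature Extraction 11.5, according to the submitters' processing notes. The intensity analysed here is the processed signal, which per the file headers is linear and background-subtracted, with no normalization between arrays. All values of the deposited series table lay within 1% of these intensity values. Non-outlying spots were averaged per probe, and the probes of a miRNA were summed. Each array was scaled to the 75th percentile of the miRNAs that every array of its sample type detected (every one of the 22 arrays, for comparisons between types). A floor was then set at the lowest scaled value of any detected miRNA, as its median across arrays, before log2.

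Groups were compared with limma 3.58.1 (lmFit, eBayes) in R 4.3.3 over miRNAs detected on no fewer arrays than the size of the smaller group, with Benjamini-Hochberg adjustment over all of them and a threshold of 0.05. The limma step was tested on simulated data. The number of arrays limits the precision.

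The member, the 7 marker lists (endocrine and neuroendocrine, pancreatic acinar, intestinal epithelium, erythrocyte, liver, leukocyte, smooth muscle) and the tests were chosen with earlier results of these data known. miRNAs were named by their r to miR-375-3p (5 highest and 3 lowest, for levels and for deviations) and from the lists; the part of the rule on shared sequence was not run. Alternatives were other scalings, background correction by normexp with an offset of 50, other summaries of spots and probes, a doubled floor, other filters, leaving out each array, slide rows and the replicate number as a block. Coordinates and sequences are RefSeq's, on GRCm38.p6. The build named in the array design, mm9, was not used.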

Additional observations from a re-analysis of the deposited data

Results flagged for a closer look

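In intestine at 10 Gy the scaled log2 level of miR-375-3p in replicate 1 was 1.25, and its gap to the nearest of the other 3 arrays took up 0.891 of the group's range, above Dixon's critical value of 0.829 for 4 arrays. Without that array the change in intestine was -0.26, the lowest of those that leave out 1 array. In feces at 10 Gy the summed signal of miR-375-5p in replicate 1 was 19.5, with a gap of 0.845 of the range. Of 14 sets of 4 arrays looked at, 2 were marked in this way, and chance marks about 1 in 20.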

How the results depend on the processing

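The intestinal change of miR-375-3p (-0.07) passed under 0 of 27 alternatives and turned positive without scaling (0.39), with the summed signal (0.086) and within slide row 1 (0.21); leaving out 1 array gave -0.26 to 0.015. The feces change (0.65) passed under 0 of 26, was negative without scaling (-0.16) and with the mean of probes (-0.013), and ran from 0.18 to 1.19 with 1 array left out. It had no value over miRNAs detected on all arrays. The feces effect minus the intestine effect (0.18) was negative without scaling (-0.70), with quantile normalization (-0.066), with the summed signal (-0.17) and within row 1 (-0.16), and -0.019 to 0.48 with 1 array left out. Feces minus intestine passed under 24 of 24 alternatives at each dose (-7.37 to -3.09 at 0 Gy, -7.27 to -2.95 at 10 Gy). Those that left out a feces array could not move it, since all feces arrays lay at the lowest value allowed. The serum difference (2.61) was 1.83 without scaling and 1.44 with normexp; 2.08 to 3.13 with 1 array left out. Unirradiated serum minus intestine (-3.40) was -2.62 with the percentile over all miRNAs, -1.57 with quantile normalization, -1.71 with the summed signal, -2.36 with normexp, and -3.86 to -2.94 with 1 array left out. miR-375-5p in feces (0.80) ran from 0.66 to 1.01 with 1 array left out, and passed without replicate 4 at 0 Gy. This arm needed the 10 Gy group to meet the filter, so that pass is a description too. The alternatives of miR-375-5p, and those of the listed miRNAs, were added after seeing the data. As a replicate block, the replicate number moved serum to 2.34 and left the intestine and feces changes at -0.07 and 0.65. It could not move those changes, since each dose there holds every replicate number. The same holds there for the slide row as a block and for other filters. These alternatives could change only the p-values. Same-numbered arrays did not deviate together throughout (r from -0.57 to 0.44), so the numbers were not taken as pairs. Totals of miRNAs passing moved with the settings, from 50 to 1500 in intestine (138 as reported; 1500 with no filter, where most miRNAs have no variance), 0 to 149 in feces (37) and 0 to 18 in serum (9). The cause of these shifts was not tested. Signal over background limits every value of miR-375-3p in feces and of miR-375-5p.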
